A study of Mus musculus with 38 samples.

Results

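The balance between H3K4me3 and H3K27me3 was described for the promoters of neural stem/progenitor cells (NSPCs) from the subventricular zone of young adult mice. Each gene of the deposited table of promoter windows was represented by 1 window of 5 kb centred on a transcription start site, namely the one of its windows with the highest young H3K4me3 signal, and chromosomes 1 to 19 were used. This gave 24415 genes of the 25888 in the table, and 69524 of its 72923 windows lay on these chromosomes. The NSPCs were grown as neurospheres with EGF and FGF from the forebrain neurogenic niche of male C57BL/6JBabr mice at 3 months of age, and each derivation was pooled from several animals, so that the replicates are cultures and not single mice. No transgene or drug treatment was applied to any sample used here, and cultured neurospheres mix stem cells with their dividing progeny. The study also profiled NSPCs from male mice at 18 months, which are used here only to set values side by side, as is 1 RNA library of young NSPCs from C57BL/10 mice. The histone marks came from native ChIP of MNase-digested chromatin, and 9 of the 38 samples (3 each of H3K4me3, H3K27me3 and Input) stand behind the 3 young ChIP columns, which hold 1 pooled value per window. ChIP values therefore carry no replicate error and no test. RNA and DNA methylation were measured in 3 libraries each.

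H3K4me3 is placed on nucleosomes around active or poised start sites, mostly at CpG-rich promoters, by complexes built around the SET1 and MLL methyltransferases. H3K27me3 is placed by Polycomb repressive complex 2, whose catalytic subunit is EZH1 or EZH2, and is bound by the CBX proteins of Polycomb repressive complex 1. In stem cells many promoters of developmental regulators carry both marks and are called bivalent, with little RNA. A pooled ChIP signal from a culture cannot tell both marks on 1 nucleosome from each mark in different cells.

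Promoters of 5 genes are shown so that their base composition can be read directly. Sox2, a core NSPC factor, carried H3K4me3 without H3K27me3. Eomes, a T-box factor of neuronal progenitors, was the gene with the highest smaller enrichment of both marks. Hoxb1, a hindbrain homeobox gene, carried H3K27me3 on unmethylated DNA. Krt7, an epithelial keratin, carried H3K27me3 on partly methylated DNA. Sycp1, a gene of the meiotic synaptonemal complex, carried neither mark and had methylated DNA. Hoxb1, Krt7 and Sycp1 hold more CG than is usual for such genes, whose medians were 4 with H3K27me3 only and 3 with neither mark. The 5 sequences are thus examples and do not represent their classes. Each runs from 250 bases before to 50 bases after a RefSeq start site on the GRCm38.p6 assembly, 5′ to 3′ on the strand of the gene, with every CG dinucleotide in capitals. They lie at chr3:34649745-34650044 (plus strand, Sox2), chr9:118477939-118478238 (plus, Eomes), chr11:96365508-96365807 (plus, Hoxb1), chr15:101412153-101412452 (plus, Krt7) and chr3:102936051-102936350 (minus, Sycp1).
Sox2: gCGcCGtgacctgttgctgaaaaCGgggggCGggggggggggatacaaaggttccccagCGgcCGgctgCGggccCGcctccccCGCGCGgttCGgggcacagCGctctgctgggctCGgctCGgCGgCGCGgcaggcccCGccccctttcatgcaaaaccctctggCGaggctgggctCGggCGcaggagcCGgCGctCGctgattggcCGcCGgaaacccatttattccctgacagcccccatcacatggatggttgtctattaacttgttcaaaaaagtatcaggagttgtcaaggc
Eomes: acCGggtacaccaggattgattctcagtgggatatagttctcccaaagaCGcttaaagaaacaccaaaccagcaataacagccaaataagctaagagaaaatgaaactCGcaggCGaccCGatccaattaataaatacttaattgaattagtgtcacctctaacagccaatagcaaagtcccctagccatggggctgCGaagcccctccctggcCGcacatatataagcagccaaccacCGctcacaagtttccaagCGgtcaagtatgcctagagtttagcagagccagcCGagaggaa
Hoxb1: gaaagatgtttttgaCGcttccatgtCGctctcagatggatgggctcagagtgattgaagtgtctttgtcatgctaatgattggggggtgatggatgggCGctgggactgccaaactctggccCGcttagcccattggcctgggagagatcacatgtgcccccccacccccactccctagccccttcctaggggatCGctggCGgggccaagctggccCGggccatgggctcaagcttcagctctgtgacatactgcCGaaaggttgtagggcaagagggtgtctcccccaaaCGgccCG
Krt7: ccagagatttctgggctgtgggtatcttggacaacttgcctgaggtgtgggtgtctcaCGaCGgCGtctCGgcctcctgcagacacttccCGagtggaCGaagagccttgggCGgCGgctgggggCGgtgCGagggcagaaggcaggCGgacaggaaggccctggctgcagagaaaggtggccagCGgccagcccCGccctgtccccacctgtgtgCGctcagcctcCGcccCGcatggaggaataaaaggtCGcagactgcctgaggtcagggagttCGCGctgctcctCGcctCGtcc
Sycp1: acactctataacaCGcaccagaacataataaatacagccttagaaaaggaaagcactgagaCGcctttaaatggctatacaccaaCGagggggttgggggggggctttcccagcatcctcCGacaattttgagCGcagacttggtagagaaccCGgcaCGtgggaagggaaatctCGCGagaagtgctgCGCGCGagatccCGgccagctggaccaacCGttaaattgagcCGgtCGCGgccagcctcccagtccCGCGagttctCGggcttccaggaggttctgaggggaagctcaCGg

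The Sox2 sequence holds 27 CG dinucleotides, Krt7 and Sycp1 21 each, and Eomes and Hoxb1 10 each. In the 1 kb around the start, 5-methylcytosine (5mC) was called at 0% of 294 cytosine calls for Sox2, 2.61% of 115 for Eomes, 1.49% of 67 for Hoxb1, 29.2% of 154 for Krt7 and 87.1% of 101 for Sycp1, with the 3 oxidative bisulphite libraries summed. Krt7 and Sycp1 thus hold as many CG as each other and differed in methylation and in H3K27me3. Over all 24415 genes, 95.2% held at least 1 CG in the 300 bases at the same offsets from the window centre (the letters CG read the same on both strands), and 53.4% held at least 10.

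A promoter was called marked when its signal was at least 2-fold above Input, that is 1 on the log2 scale. H3K4me3 marked 14545 genes (59.6% of all) and H3K27me3 marked 4281 (17.5%). The marks divided the genes into 11799 with H3K4me3 only (48.3%), 2746 with both marks (11.2%), 1535 with H3K27me3 only (6.29%) and 8335 with neither (34.1%). These counts depend on the threshold and the zero of the scale: H3K27me3 only held 2392 genes with a 1.5-fold and 817 with a 3-fold threshold, and with the median of olfactory receptor windows as zero both marks held 5739 genes, H3K27me3 only 2353 and neither 4798. Within 0.25 of the threshold on the log2 scale lay 394 genes (1.61%) for H3K4me3 and 1726 (7.07%) for H3K27me3. The nearest genes on either side were Snai3 and Dnahc7a for H3K4me3 (both 1.00) and Agxt and 4930538E20Rik for H3K27me3 (both 1.00), so membership of the H3K27me3 classes is less sharp.

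Genes with H3K4me3 only had a median log2 enrichment over Input of 4.55 for H3K4me3 and -0.92 for H3K27me3. Genes with both marks carried less H3K4me3 (median 3.18) and a median H3K27me3 enrichment of 2.34, which is higher than the 1.47 of genes with H3K27me3 only. The strongest H3K27me3 signals thus stood at promoters that also carried H3K4me3. The balance, the log2 ratio of H3K4me3 to H3K27me3, had medians of 5.43, 0.64, -2.51 and -1.14 in the classes H3K4me3 only, both marks, H3K27me3 only and neither, and it ran from -4.25 to 9.0 over all genes.

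**Figure D1:**
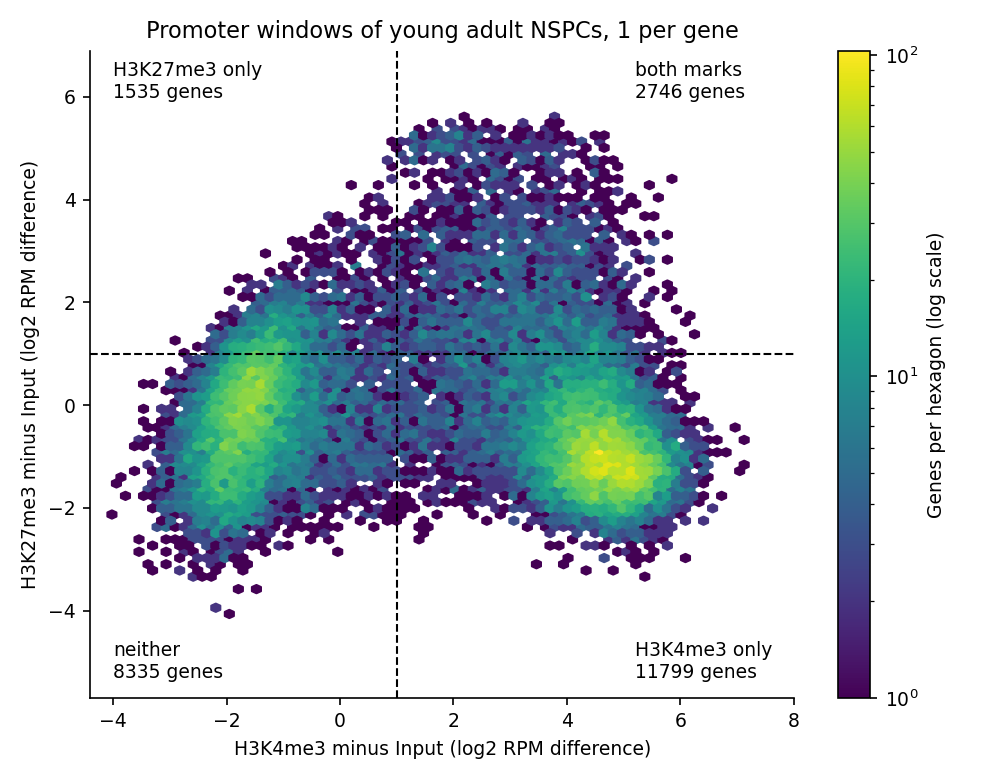
H3K4me3 (x axis) against H3K27me3 (y axis) in young NSPC promoters, each as log2 enrichment over Input, with colour giving the number of genes per hexagon on a log scale and dashed lines the 2-fold thresholds. The 11799 genes with H3K4me3 only form the dense group at lower right, the 8335 with neither the group at lower left, and the 2746 with both marks spread over the upper right without a dense centre.

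RNA followed the classes. It was counted per gene by the authors and is given as log2 RPM (reads scaled to a library of 1000000 reads), a gene without a read standing at the value of 0.9 reads, which is -5.51, -4.24 and -4.86 in libraries 1 to 3 because their depths differ. The median level of genes with H3K4me3 only was 4.48, 4.50 and 4.51 log2 RPM in the 3 libraries and that of genes with both marks was -2.04, -1.76 and -1.71. The class medians were apart in every library although single genes of the classes overlapped (5th percentile -2.72 with H3K4me3 only, 95th percentile 4.94 with both marks), and the mean difference of 6.33 ± 0.16 (SD, n = 3 libraries) gave p = 0.25 in an exact two-sided sign-flip permutation test and p = 0.1 in an exact permutation test without the pairing, in each case the smallest value that 3 libraries allow. Among genes of at least -2 log2 RPM the difference was 3.16. Because these are bulk cultures, fewer cells of a type and less RNA per cell cannot be told apart.

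The medians of the H3K27me3-only and neither classes stood at the value of a gene without a read, so these classes are described by shares. No read was found in any of the 3 libraries for 130 genes with H3K4me3 only (1.10%), 492 with both marks (17.9%), 942 with H3K27me3 only (61.4%) and 4584 with neither (55.0%), against 25.2% of all genes. A level of at least 1 RPM was reached by 90.1% ± 0.40 of genes with H3K4me3 only, 35.7% ± 1.26 with both marks, 5.02% ± 0.23 with H3K27me3 only and 13.5% ± 0.31 with neither (SD, n = 3 libraries). Genes with both marks therefore sat between the expressed class and the 2 classes without H3K4me3. Their share was higher than that of genes with H3K27me3 only by 30.7 ± 1.03 percentage points (29.7, 31.7 and 30.8 in the 3 libraries, exact permutation p = 0.25, the smallest possible). Per kilobase of transcript the class medians of the RNA level were 2.28, -3.80, -5.44 and -4.96 log2 RPM per kb in the order above, over the 23757 genes with an annotated length. In the 2 classes without H3K4me3 most genes had no read. Their medians per kb therefore rest on the value set for such genes and on gene length, and their order is not interpreted.

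Along the balance the median RNA level increased from bin to bin once H3K4me3 exceeded H3K27me3. Of the 515 genes with a balance below -3, 80.2% had no read, and of the 1683 with a balance from 0 to 1, 27.3%. The median level was -3.02 log2 RPM in that latter bin, -0.51 from 1 to 2, 1.26 from 2 to 3, 3.20 from 3 to 4, 4.14 from 4 to 5, 4.85 from 5 to 6, 5.12 from 6 to 7 and 5.38 above 7. The step between neighbouring bins exceeded 1 log2 unit up to the bin from 3 to 4 and was smaller above it, and the medians per kb ran in the same order, from -3.84 in the bin from 0 to 1 to 2.89 above 7. Across the 24415 genes Pearson's r between balance and mean log2 RPM was 0.824 and Spearman's rho 0.796, and per kb they were 0.781 and 0.753. These describe genes that share the same pooled ChIP, Input and RNA libraries and their base composition, and are not tests.

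H3K4me3 enrichment alone gave r = 0.776 and H3K27me3 alone r = -0.360 against the RNA level. Within genes carrying both marks the balance still tracked the RNA level (r = 0.635, rho = 0.657), more closely than within genes with H3K4me3 only (r = 0.460, rho = 0.418) or H3K27me3 only (r = 0.270, rho = 0.303). These within-class values were not compared by a test. Among the 14309 genes with a mean level of at least -2 log2 RPM r was 0.569, lower than over all genes, of which 25.2% had no read.

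**Figure D2:**
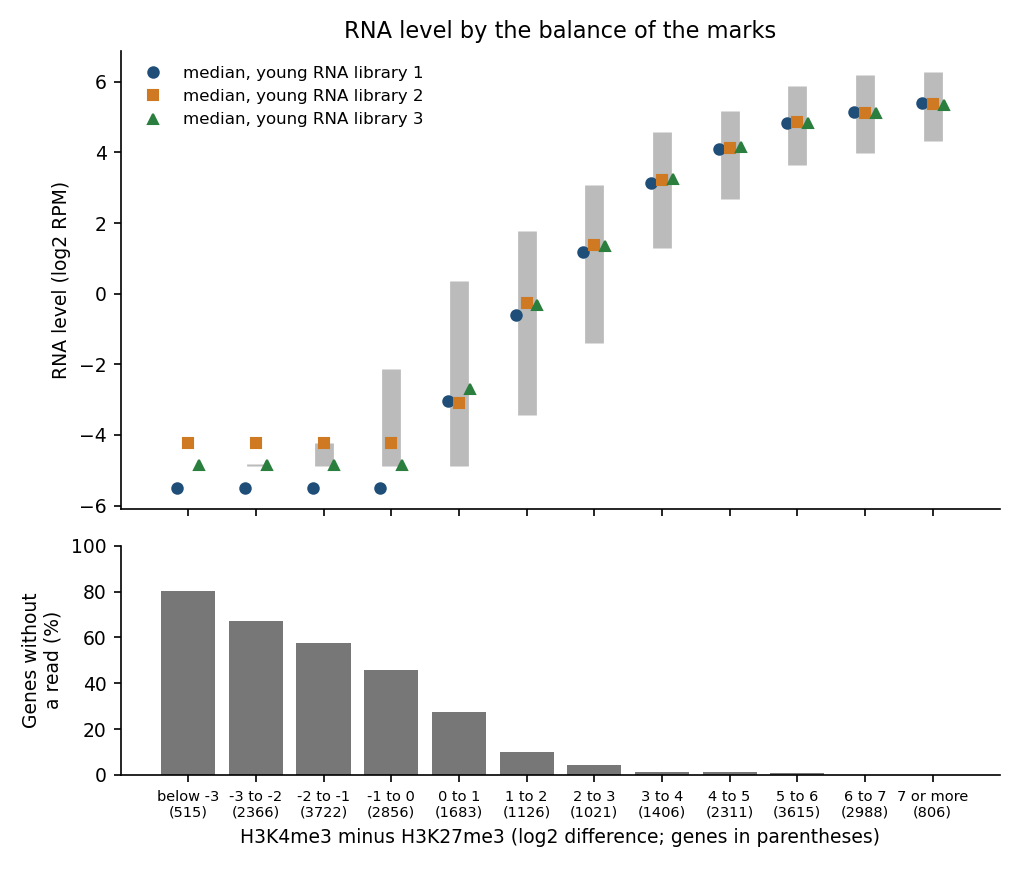
RNA level against the balance of the marks (x axis, log2 H3K4me3 over H3K27me3 in bins of 1). The upper panel gives the median log2 RPM of each of the 3 young libraries as points, with grey showing the quartiles over genes of the 3-library mean, and the bars of the lower panel give the percentage of genes without a read, which goes from 80.2% below -3 to at most 1.21% above 3.

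H3K27me3 was associated with lower RNA at the same H3K4me3. Among genes with an H3K4me3 enrichment of 4 to 5, the median RNA level was 4.86 log2 RPM with an H3K27me3 enrichment below -1 (2634 genes), 4.70 from -1 to 0, 4.09 from 0 to 1, 3.12 from 1 to 2, 0.73 from 2 to 3, -0.73 from 3 to 4 and -3.19 above 4 (47 genes). The medians differed little between the first pair of bins and by over 2 across an H3K27me3 enrichment of 2, and per kb they ran from 2.73 to -4.79 in the same order. The difference between genes with H3K27me3 below Input (4870) and at least 4-fold above it (292) was 5.08, 4.91 and 5.04 in the 3 libraries, a mean of 5.01 ± 0.09 (SD, n = 3; exact sign-flip permutation p = 0.25, the smallest possible). It was 6.95 ± 0.05 at an H3K4me3 enrichment of 3 to 4 and 6.42 ± 0.54 at 2 to 3 (both also at the smallest exact permutation p, 0.25). The CpG content of the genes compared was close in the highest of these ranges, with median observed over expected CpG of 0.759 without and 0.737 with H3K27me3, and less so in the lowest, at 0.455 and 0.669.

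Conversely, H3K4me3 was associated with higher RNA at the same H3K27me3. With H3K27me3 at 2 to 3, the median level was -4.43 log2 RPM at an H3K4me3 enrichment of 1 to 2, -2.75 at 2 to 3, -1.55 at 3 to 4, 0.73 at 4 to 5 and 1.76 above 5 (25 genes). Per kb the medians along this row ran in the same order, from -5.44 to -0.74 log2 RPM per kb.

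**Figure D3:**
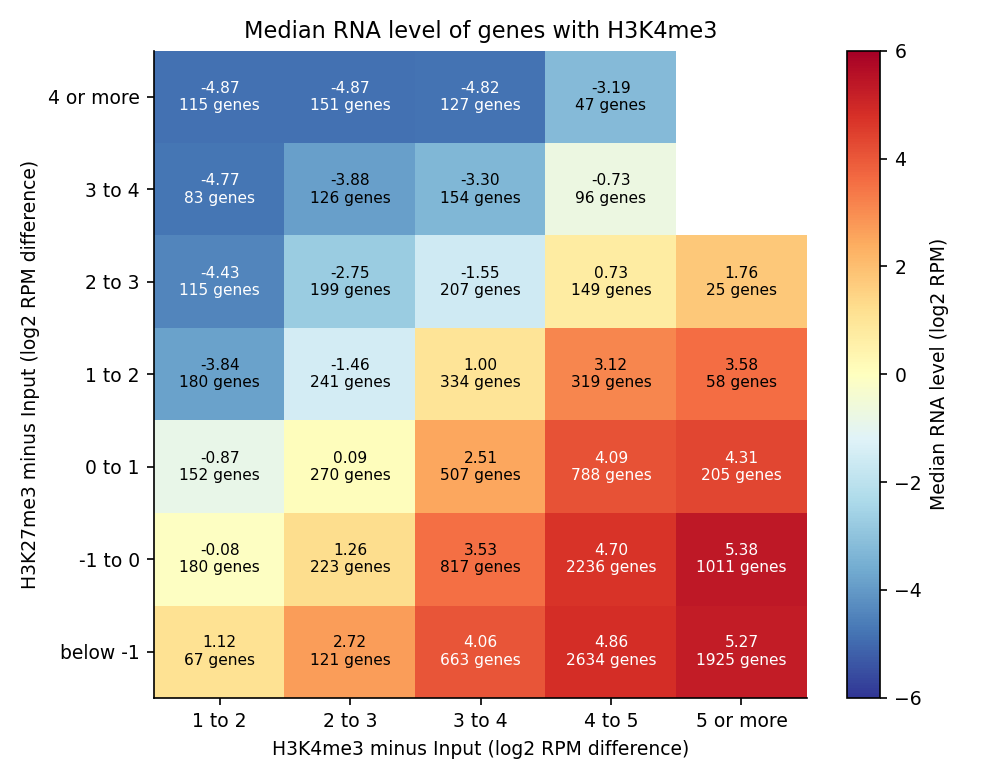
Median RNA level (log2 RPM, mean of 3 libraries) in a grid of H3K4me3 (x axis) and H3K27me3 (y axis) enrichment over Input, with the value and the number of genes printed in each cell. Levels are highest at lower right (5.38 and 5.27 above an H3K4me3 enrichment of 5) and lowest along the top row.

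Genes with both marks also varied more between the 3 derivations. At a mean level of 2 to 4 log2 RPM the median SD between libraries was 0.26 for 339 genes with both marks and 0.17 for 2621 with H3K4me3 only, and the SD exceeded 0.5 in 21.2% and 4.50% of them. The same order held at 0 to 2 (0.39 and 0.30), at 4 to 6 (0.19 and 0.12) and, with closer medians, at -2 to 0 (0.52 and 0.48). At 6 to 8, with 40 genes with both marks, the medians were 0.14 and 0.12, but the SD exceeded 0.5 in 0% and 1.33%. This is a description over genes in the same range of level, and levels were not matched within a range. No test was made since the 3 derivations are shared by all of these genes.

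The regulators and markers of the NSPC state lay at the H3K4me3 end. Of 28 listed, 24 carried H3K4me3 only (85.7%, against 48.3% of all genes) and 4 carried both marks. H3K27me3 marked 14.3% of them, near the 17.5% of all genes, and the median balance was 6.44 against 1.95 for all genes. The median CpG ratio (observed over expected) of the list was 0.735. Among all genes with a ratio of at least 0.6, 81.9% carried H3K4me3 only and 16.4% both marks. The class shares of the list were thus near those of CpG-rich genes. Sox2 had an H3K4me3 enrichment of 6.10 and an H3K27me3 enrichment of -1.45, with RNA levels of 6.86, 7.01 and 7.15 log2 RPM. Nes and Vim, the intermediate filaments of neural progenitors, stood at 10.53, 10.43 and 10.34 and at 11.82, 11.82 and 11.80. All 3 were expressed in each library. The 4 exceptions, named here after their values were seen, were Prom1 (the surface antigen CD133; balance 1.67), the RNA-binding protein Msi1 (3.97, H3K27me3 enrichment 1.08), the Polycomb subunit Bmi1 (2.34) and the homeobox factor Gsx2 (-1.03). Of these, Gsx2 alone was near silent, with 3, 1 and 0 reads, and Bmi1 and Msi1 stood at mean levels of 5.23 ± 0.14 and 5.64 ± 0.31 log2 RPM. The Prom1 and Bmi1 windows overlap windows of other genes.

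The inhibitors of cyclin-dependent kinases, which hold cells out of division, carried H3K4me3 only in 6 of 7 cases, against 48.3% of all genes. Their median CpG ratio was 0.742, and 81.9% of all genes with a ratio of at least 0.6 carried H3K4me3 only. Cdkn2a, which encodes p16 and p19 and is a classical Polycomb target, carried H3K4me3 only at its chosen window, with an H3K27me3 enrichment of 0.49. Its RNA levels, counted over the whole gene, were 5.12, 5.41 and 5.33 log2 RPM. The marks at any other start site of Cdkn2a are not given here, so the class does not describe the whole locus. Cdkn2c (p18) had one of the largest balances of all genes, 8.56. The exception was the imprinted gene Cdkn1c (p57), with both marks (2.33 and 3.35), 35.5% 5mC in its core, and levels of -0.50, 0.16 and -0.54.

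Transcription factors of neuronal fate lay mostly in the class with both marks. Of 28, 26 carried both marks (92.9%, against 11.2% of all genes), 1 carried H3K27me3 only (Neurod6; 6.29% of all genes) and 1 neither (Neurod4; 34.1%), both named after their values were seen. H3K27me3 marked 96.4% of them against 17.5% of all genes, and their median enrichments were 3.70 for H3K4me3 and 4.83 for H3K27me3. Within them RNA ran from no read in 9 genes to 2.11 log2 RPM. The members with RNA included the Dlx and Sp factors of interneurons made by this niche. Dlx2 had the H3K4me3-leaning balance of 2.64 and levels of 1.56, 1.96 and 0.50, and Dlx1 a balance of 0.60 and levels of 1.23, 1.53 and 0.97. Sp9 had about equal marks (4.47 and 4.54) and levels of 2.36, 2.44 and 1.54. Library 3 was the lowest of the 3 for each of these and for Sp8, which read -1.04, 0.92 and -2.12. At the other end Dlx5 and Dlx6 had balances of -2.32 and -1.75, with no read for Dlx5 and 5, 0 and 0 reads for Dlx6. The ends of the balance range were Lhx5 (-3.31), a factor of early forebrain neurons without a read, and Bcl11b (2.99).

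Eomes carried the highest joint enrichment of any gene with a known symbol, 4.84 for H3K4me3 and 4.71 for H3K27me3, and had 3, 1 and 4 reads in the 3 libraries. The next in that order were Lef1 (4.83 and 4.65), a Wnt effector with 5, 1 and 4 reads, Rnf220, Gata3, Lhx4 and Atoh1. Gata3 and Lhx4 had no read and Atoh1 1 read in 1 library. Rnf220, a ubiquitin ligase, was the exception, with levels of 4.90, 4.77 and 4.83 log2 RPM at marks of 4.65 and 5.11. Its window, like that of Gata3, overlaps another gene's window, and it has 10 annotated windows.

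Factors that pattern more posterior or non-neural tissue mostly carried H3K27me3, against 17.5% of all genes. All 39 Hox genes carried it, 37 together with H3K4me3, at a median enrichment of 5.11 against 1.75 for H3K4me3. The lowest balance was that of Hoxb1 (-4.16), 36 had no read, and all 39 together had 0, 0 and 3 reads in the 3 libraries. Of 30 patterning factors of midbrain, hindbrain and spinal cord, 29 carried both marks (11.2% of all genes did) and 16 had no read, with En1 and Evx1 among the silent or near-silent ones. The exception was Dbx2, a homeobox factor of the intermediate spinal cord, with an H3K4me3 enrichment of 4.11, an H3K27me3 enrichment of -0.68 and levels of 5.65, 5.64 and 5.73 log2 RPM. Its 1 kb around the window centre was methylated (91.4% of 35 calls), unlike the median of 3.46% for the list. That stretch is poor in CpG, with an observed to expected ratio of 0.190 against a list median of 0.695. Over the 5 kb window its 5mC was 47.0%.

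Of 48 factors of mesoderm, endoderm, blood and epidermis, 41 carried both marks (85.4%, against 11.2% of all genes), 3 H3K27me3 only and 4 neither (8.33% against 34.1%), and 28 had no read (25.2% of all genes had none). Gata4, a factor of heart and endoderm, and Tal1, of blood, were without a read at balances of -3.17 and -2.85. Sox7, an endothelial factor at the H3K4me3 end of this list (balance 2.10), had the highest RNA of it, with levels of 5.35, 3.88 and 4.66 log2 RPM. The 4 without either mark, named after their values were seen, were the myogenic factors Myf5 and Myog, Trp63 and Mesp2. The core of Myf5 was 81.6% methylated and that of Myog 78.9%, against a list median of 3.87%.

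Signalling and neuronal genes were spread over the classes. For comparison, the shares of all genes were 11.2% with both marks, 48.3% with H3K4me3 only, 6.29% with H3K27me3 only and 34.1% with neither. Of 51 Wnt, Fgf, Bmp and hedgehog ligands, 30 carried both marks, 8 H3K4me3 only, 8 H3K27me3 only and 5 neither. Wnt5a lay at the H3K4me3 end (balance 6.43; levels 4.61, 4.52 and 4.89) and Fgf4 at the other (-3.74), without a read. Wnt7b had the highest RNA of the ligands without correction for length (7.16, 7.25 and 7.21 log2 RPM) and crossed the H3K27me3 threshold narrowly, at 1.19. Shh, which patterns the ventral niche, had near equal marks (4.60 and 4.07) and levels of -0.60, 0.77 and -0.46. Wnt7b and Shh were picked after their values were seen.

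Of 38 glutamate and GABA receptor subunits, 25 carried both marks (65.8%, against 11.2% of all genes) and 7 H3K4me3 only (18.4% against 48.3%), and 3 had no read (25.2% of all genes had none). Their median level was -2.11 log2 RPM per kb, with median enrichments of 3.31 for H3K4me3 and 1.69 for H3K27me3. The fate factors stood at -5.61 log2 RPM per kb, but 9 of these 28 had no read, so that value lies near that of a gene without a read. The AMPA receptor subunits Gria1 and Gria2 carried H3K4me3 only, at mean levels of 5.63 ± 0.19 and 4.29 ± 0.24 log2 RPM, and the NMDA receptor subunits Grin1, Grin2a and Grin2b both marks, at 1.95 ± 0.28, 2.33 ± 0.40 and 0.22 ± 0.19 (SD, n = 3). Of 30 precursors of neuropeptides and hormones, 15 carried both marks (50% against 11.2% of all genes) and 7 H3K27me3 only (23.3% against 6.29%), and none exceeded a mean level of 0.64 log2 RPM, including the 4 with H3K4me3 only.

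Genes of general cell function carried H3K4me3 without H3K27me3. This held for all 31 proteasome subunits, all 30 genes of DNA replication and division and 72 of 73 cytosolic ribosomal proteins, against 48.3% of all genes, the exception being Rpl26 (H3K27me3 enrichment 1.93, levels 7.54, 7.56 and 7.30 log2 RPM). With a 1.5-fold threshold H3K27me3 marked 2, 2 and 3 members of these lists, in the same order. Their median levels per kb were 4.84, 3.48 and 6.38 log2 RPM, and their median balances 5.78, 5.57 and 5.73. Reads of ribosomal protein genes can be shared with their many processed pseudogenes, so these levels are uncertain.

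The proteins that write, bind and remove the marks are given next, beside 48.3% of all genes with H3K4me3 only and 11.2% with both marks. All 14 subunits and demethylases of H3K4 methylation carried H3K4me3 only, with balances from 5.53 to 7.73. Of 28 Polycomb proteins, 22 carried H3K4me3 only, among them the H3K27 methyltransferase Ezh2 (balance 7.50; levels 5.98, 5.62 and 5.55 log2 RPM) and its partner Eed (6.85; 4.80, 4.52 and 4.40). The 6 with both marks were all subunits of Polycomb repressive complex 1, namely Cbx2, Cbx8, Bmi1, Pcgf1, Pcgf2 and Pcgf3. No test compared this complex with the other members. H3K27me3 marked 21.4% of the 28, against 17.5% of all genes. The median CpG ratio of the 28 was 0.806. Of all genes with a ratio of at least 0.6, 81.9% carried H3K4me3 only and 16.4% both marks. Cbx2, which binds H3K27me3, had the lowest balance of the list (1.24) and levels of 2.93, 2.89 and 2.62. Pcgf3 crossed the threshold at 1.16 and stood at 5.67, 5.60 and 5.54. The median level was 3.28 log2 RPM over the 6 and 5.02 over the other 22, without a correction for length.

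Chemosensory receptors and germline genes mostly carried neither mark. This was so for 1002 of 1080 olfactory receptors, of which 1028 had no read, for 309 of 316 vomeronasal receptors and for 20 of 28 germline genes, against 34.1% of all genes. Germline promoters differed from the receptors in CpG content, with a median ratio of 0.597 against 0.137 for olfactory receptors. Where at least 20 calls allowed a value, both had methylated cores. The medians were 82.6% 5mC over 27 of the 28 germline genes and 75.5% over only 393 of the 1080 olfactory receptors. Sycp1 had no read. Brdt, a testis bromodomain protein at the H3K4me3 end of the germline list (balance 4.91), had an unmethylated core (4.40% of 91 calls) and levels of 3.27, 3.34 and 3.53 log2 RPM, while Dazl carried weak H3K4me3 (1.43) on a methylated core (88.8%) with 1 read in 1 library.

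Of 46 keratins 24 carried H3K27me3 alone, against 6.29% of all genes, with none carrying both marks and 36 without a read. Their H3K27me3 was weak, with a median enrichment of 1.10 next to the threshold, so that 11 were marked with a 3-fold threshold, 31 with 1.5-fold and 18 in aged NSPCs, and their cores were methylated (median 76.1%). Krt7 was the extreme, with an enrichment of 2.41 and a balance of -4.18. Of 10 microglial markers 5 carried H3K27me3 only (3 with a 3-fold threshold; 6.29% of all genes) and 4 neither (34.1% of all genes), and their summed level was 5.85, 6.08 and 7.63 RPM in the 3 libraries. The shares of all genes to set beside the next counts were 48.3% with H3K4me3 only and 11.2% with both marks. Neuron markers carried both marks in 7 of 9 cases, with a summed level of between 17 and 23.6 RPM, and endothelial and pericyte markers in 4 of 12, with between 14.98 and 25.6 RPM. The 28 NSPC regulators summed to 10125, 9373 and 8881 RPM, so the markers of the labelled cell type were present in every library. Astrocyte markers, many of which NSPCs share, carried H3K4me3 only in 8 of 10 cases and summed to between 2215 and 2608 RPM. Oligodendrocyte lineage markers carried H3K4me3 only in 4 and both marks in 3 of 11 cases and summed to between 1054 and 1196 RPM. Of 6 ependymal markers, 4 carried H3K4me3 only, and their sum was lowest in library 1 (39.2 RPM) and highest in library 3 (115 RPM). Single markers within these lists ranged widely, the microglial ones from no read to a mean level of 2.53 log2 RPM and the endothelial and pericyte ones from no read to 3.87 (Flt1), with Aif1 of microglia at 0, 1 and 0 reads and Cdh5 of endothelium at 1, 0 and 1. The part of such cells in the values above was not tested.

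**Figure D4:**
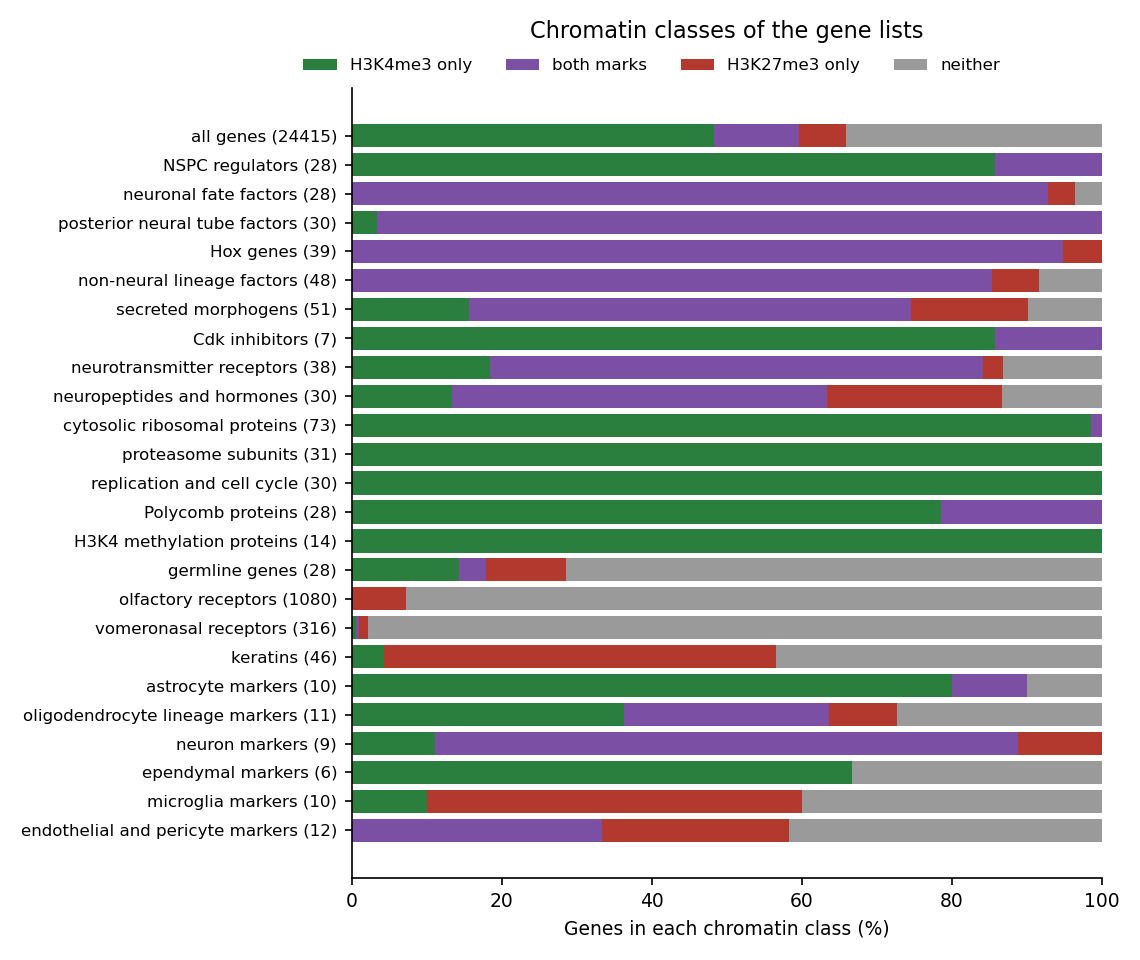
Share of the members of each gene list (rows, with the number of members) in the 4 chromatin classes (colours), as a percentage of members, with all genes for comparison. Hox genes, neuronal fate factors and posterior neural tube factors are almost entirely in the class with both marks, proteasome, replication and ribosomal genes in the class with H3K4me3 only, and receptors of smell in the class with neither.

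Words in the deposited gene descriptions were ranked by the share of their genes in each class, and those shown stand high in each ranking, with no test. Of 157 genes described as homeobox, 115 (73.2%, against 11.2% of all genes) carried both marks, as did 61.9% of 42 with the word forkhead, 53.8% of 52 with voltage-gated and 42.2% of 45 with collagen. H3K4me3 alone (48.3% of all genes) was carried by 96.7% of 60 genes with ribonucleoprotein and 96.1% of 129 with polymerase, and H3K27me3 alone (6.29% of all genes) by 33.7% of 104 with keratin and 26.6% of 64 with chemokine. These words overlap with the lists above.

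DNA methylation was low in both classes with H3K4me3 and high in both without it. In the 1 kb around the window centre 5mC was 2.96% ± 0.057 in genes with H3K4me3 only and 5.497% ± 0.36 with both marks, against 51.0% ± 1.01 with H3K27me3 only and 68.8% ± 0.82 with neither (SD, n = 3 libraries, at least 22219 calls per class and library). The difference between both marks and H3K27me3 only was -45.0, -45.3 and -46.2 percentage points in the 3 libraries (exact permutation p = 0.25, the smallest possible). Over each class as a whole, H3K27me3 thus stood on less methylated promoters where H3K4me3 was present. The classes also differed in CpG content, as given below. At a CpG ratio of at least 0.6 the median core 5mC was 2.14% with both marks and 25.008% with H3K27me3 only (42 genes). At 0.3 to 0.6 it was 7.92% and 52.4%, and under 0.3 it was 54.2% and 70.8%. The direction held in each range, but promoters poor in CpG were methylated with both marks too. Over the 5 kb window the difference between both marks and H3K27me3 only was -42.1 percentage points, and it was -27.1 with a 3-fold threshold. Of genes with at least 20 calls, the core exceeded 50% 5mC in 4.00% with H3K4me3 only, 3.76% with both, 69.4% with H3K27me3 only and 84.7% with neither.

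Over the whole 5 kb window H3K4me3-only and both-mark genes were at 20.97% ± 0.32 and 20.4% ± 0.73 (difference 0.57 ± 0.67 percentage points; 1.29, 0.46 and -0.04 in the 3 libraries; exact permutation p = 0.5). This difference depended on the threshold, at -0.90 ± 0.62 with a 1.5-fold and 2.55 ± 0.74 with a 3-fold threshold (exact permutation p = 0.25 for each), so no direction is given for the window. In the 1 kb core the difference was negative in all 3 libraries, -2.31, -2.41 and -2.89 percentage points, a mean of -2.54 ± 0.31 (exact permutation p = 0.25). Bisulphite libraries, which read 5mC and 5-hydroxymethylcytosine together, gave core values of 3.20, 5.76, 51.9 and 69.3% in the same class order.

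The CpG content followed H3K4me3 too. The median ratio of observed to expected CpG in the window core was 0.739, 0.668, 0.227 and 0.190 in the class order above, and 74.2% of genes with H3K4me3 only and 63.7% with both marks reached 0.6, against 2.87% and 1.70%. In the 300 bases at the start the median number of CG was 22, 19, 4 and 3, so the Sox2 promoter shown above lies above its class median, Eomes below, and Hoxb1, Krt7 and Sycp1 far above theirs. Among the 10692 genes with a ratio of at least 0.6, 81.9% carried H3K4me3 only, 16.4% both marks, 44 genes H3K27me3 only and 142 neither, and the last had a median core 5mC of 72.0%. Within these CpG-rich genes the median RNA level was 4.75 log2 RPM with H3K4me3 only and -0.83 with both marks.

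**Figure D5:**
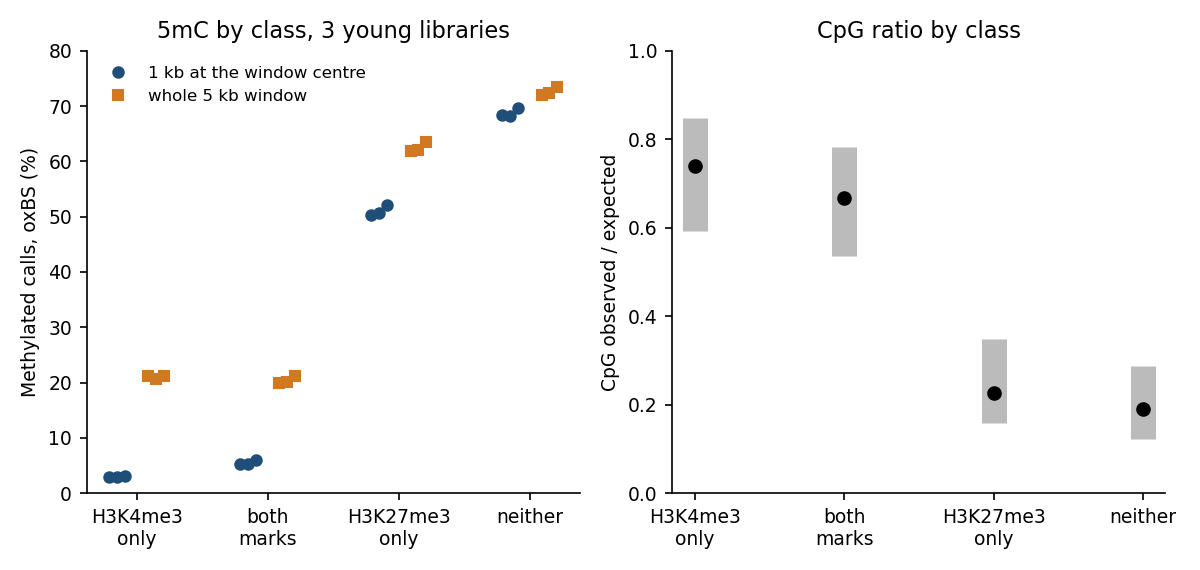
Left, 5mC (percent of cytosine calls) in each of the 3 young oxidative bisulphite libraries (points) for the 4 chromatin classes, over the 1 kb core and the 5 kb window. Right, median and quartiles over genes of the observed to expected CpG ratio in the 1 kb core, which is 0.739 and 0.668 in the classes with H3K4me3 and 0.227 and 0.190 in those without.

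Over all genes with a known symbol the largest balances were those of the cell cycle factor E2f3 (9.0), the NSPC factor Nfib (8.70), the zinc finger gene Zfp27 (8.68), Cdkn2c (8.56), Zeb2 (8.54) and the phosphatase Phlpp1 (8.52). Their RNA levels ran from 3.72 ± 0.12 (Zfp27) to 7.20 ± 0.09 (Nfib) log2 RPM, and 5mC in their cores was 0% except for 7.46% at Zfp27. The Nfib and Zeb2 windows overlap those of other genes, as does the Mir196a-2 window named next. Such values rest on H3K27me3 signals far below Input, -2.94 for E2f3, where few reads stand behind the ratio. At the window of the same gene with the highest H3K27me3 the balance was 7.63 for E2f3 and 7.78 for Cdkn2c, but 3.83 for Zeb2, 1.62 for Nfib, 1.36 for Phlpp1 and 0.60 for Zfp27. The smallest balances were those of the Hox cluster microRNA genes Mir196a-2 (-4.25) and Mir196a-1 (-4.07), Krt7 (-4.18), Hoxb1 (-4.16), the peptide Edn2 (-4.15) and Umodl1 (-4.12). None had more than 1 read in a library. The Hox-cluster promoters among them were unmethylated (0% to 4.00%), while the cores of Edn2 and Umodl1 were methylated at 67.0% and 72.9%. The balances of Krt7, Edn2 and Umodl1 rest in part on H3K4me3 signals far below Input (-1.78, -1.93 and -2.88). Their H3K27me3 enrichments were 2.41, 2.22 and 1.24, against 4.33 for Hoxb1.

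Some genes had RNA against their marks. Of genes with both marks, 242 (8.81%) had a mean level of at least 4 log2 RPM, as did 24 with H3K27me3 only (1.56%), 332 with neither (3.98%) and 7058 with H3K4me3 only (59.8%). Ranked by log2 RPM, without correction for length, the highest with both marks was the tubulin Tuba1c, with levels of 9.94, 10.09 and 9.89, but its reads can be shared with near-identical tubulin genes, and the single library of C57BL/10 mice read 1.73. Next were the splicing factor Prpf8 (7.91, 7.97 and 7.91) and the translation factor Eif4b (7.87, 7.65 and 7.63), which crossed the H3K27me3 threshold narrowly at 1.17 and 1.16, then Ptprn, a secretory granule protein (7.57, 7.59 and 7.82; H3K27me3 2.04), and the cytolinker Plec (7.24, 7.75 and 7.92; 2.67, with 16 windows, the chosen one overlapping another gene's). Among the listed markers Flt1, a VEGF receptor, and the neurofilament Nefl, picked after their values were seen, combined strong H3K27me3 (4.56 and 4.42) with levels of 4.34, 3.19 and 4.09 and of 3.87, 3.38 and 2.06, so that Nefl was lowest and Flt1 intermediate in library 3.

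Pseudogenes were frequent among genes with RNA but no H3K4me3. Among genes with neither mark at 4 log2 RPM or more, 178 of 310 with an annotated type (57.4%) were pseudogenes, against 14 of 7017 with H3K4me3 only, and 12 of 22 with H3K27me3 only were. Examples are Rpl23a-ps3 (levels 8.58, 8.45 and 8.33; 3.70 in the C57BL/10 library) and Rpsa-ps10 (8.93, 8.81 and 8.45; 5.69), whose reads may belong to their parent genes. Of the protein-coding genes with neither mark at that level, 50.4% had an annotated start in GENCODE outside all their windows, against 28.9% with H3K4me3 only, while with H3K27me3 only it was 3 of 10. Fat1, a giant cadherin (8.44, 8.43 and 8.42), had 1 window, with both marks below Input and 93.0% 5mC in 57 calls. Pde2a, a phosphodiesterase, was the coding gene with the highest RNA among those with H3K27me3 only (6.73, 6.84 and 7.13; H3K27me3 1.44, core 5mC 12.8% of 78 calls). Grm5, a glutamate receptor picked after its values were seen, had levels of 6.93, 6.95 and 7.27 with neither mark and 84.0% 5mC in 25 calls.

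Of the 130 genes with H3K4me3 only and no read in any library, 34 had a known symbol, out of 10176 such symbols in the class. In name order the first were Ang (a ribonuclease; H3K4me3 5.03, core 5mC 4.96%), Apof (2.55, 84.2%), BC048644 (4.84, 0.272%) and Cebpe (1.68, 71.9%), and the windows of Ang, Apof and BC048644 overlap windows of other genes.

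Genes of the same class lay near each other on the chromosome. Among 21373 pairs of successive genes whose windows do not overlap, the next gene carried both marks in 19.4% of cases after a gene with both marks and in 11.2% over all pairs. The next gene carried H3K27me3 only in 22.1% of cases after such a gene and in 6.74% over all, and neither in 55.4% against 37.1%. Hox and receptor clusters are part of these counts. Other start sites of the same gene have less H3K4me3 by the choice of the window and are given as a description only. More than 5 kb from the chosen window of genes with both marks lay 2286 windows, of which 63.6% held neither mark, 19.3% H3K27me3 only and 9.93% both. In the same order the shares were 86.6%, 1.34% and 1.30% of 13008 such windows for genes with H3K4me3 only. They were 62.6%, 37.2% and 0.196% of 511 for genes with H3K27me3 only, and 91.5%, 8.44% and 0.0616% of 1623 for genes with neither.

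The aged ChIP columns, which come from other cultures, gave the same class for 23372 genes (95.7%). Of genes with both marks in young NSPCs 2503 (91.2%) had both in aged NSPCs, of those with H3K4me3 only 98.1%, and of those with H3K27me3 only 1232 (80.3%), with 291 below the threshold of both. Pearson's r between young and aged over genes was 0.992 for H3K4me3, 0.949 for H3K27me3 and 0.989 for the balance, as a description. Age and culture cannot be told apart in this comparison. Eomes read 4.69 and 4.73 in aged NSPCs, Hoxb1 0.28 and 4.28, Krt7 -2.10 and 2.36 and Sox2 6.48 and -1.10, all in their young class, while genes next to the H3K27me3 threshold included some that changed class, such as Msi1, Wnt7b and Prpf8 to H3K4me3 only and Umodl1 and Rpl23a-ps3 to neither, and some that did not, such as Eif4b and Pcgf3 with both marks and AK157302 with H3K27me3 only.

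The 3 young RNA libraries held 16952482 to 41053983 reads, as recovered from the steps of the RPM scale, of which 67.0% to 68.8% lay on genes, and the 3 oxidative bisulphite libraries 17835007 to 21389132 cytosine calls. At 37 genes the Input was above 3 log2 RPM, 33 of them in the class with neither mark and 4 with H3K4me3 only, where an enrichment over Input is not reliable.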

How the data were processed

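Chromatin, RNA and DNA methylation of young NSPC cultures were analysed together. Per the deposited tables, ChIP values are log2 RPM per 5 kb window, with the 3 replicates of a mark pooled by the authors into 1 column; the RNA table holds log2 RPM per gene and library, in which the authors set a gene without a read to 0.9 reads, and the values from 1 to 1000 reads, the range checked, came out as whole reads within 0.02. Methylation files hold, per cytosine, the deposited counts of methylated and unmethylated calls and their percent. The submitters' processing notes name Trim Galore 0.4 and 0.3.7, Bowtie2 2.2.5, STAR 2.3.0, Bismark 0.12.5, bcl2fastq 2.15.0.4 and FastQC 0.10.1 with the mouse build GRCm38, without the role of each, and the way windows were counted was not given in the sources used here.

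Young Input was subtracted from each mark on the log2 scale. RNA rows sharing an ID (57 IDs) were summed. Gene type and exon length came from GENCODE M21, and CpG ratios (1 kb around the window centre) and promoter sequences from RefSeq GRCm38.p6, whose promoter entries matched 15326 of the genes by symbol. Methylation calls were summed per class and library, with at least 20 calls for a single gene. Classes were compared within libraries by exact two-sided sign-flip permutation tests on 3 libraries, which cannot go below p = 0.25, and without pairing by exact permutation, which cannot go below 0.1. Libraries of a number were paired because both classes were read in 1 library. The scripts used Python 3.11.15, numpy 2.4.6, pandas 2.3.3 and scipy 1.17.1 and were tested on simulated data. Intervals between libraries cover cultures, not mice.

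The members and gene lists were chosen with earlier results of these data known. Named genes were the ends of the balance (6 each), the 6 with the highest smaller enrichment, the 5 with the highest RNA in each class but H3K4me3 only, where the 5 with the lowest were taken, all leaving out clone-like symbols, and in each list the first 6 members or the ends of its balance range (all for the proteins of Polycomb and H3K4 methylation); others are marked as picked after their values were seen. Alternatives covered the threshold, the choice of window, the Input, overlapping windows, low RNA, transcript length, the methylation window and each library left out. The share of genes at 1 RPM, the genes of extreme Input, protein-coding genes alone and other windows for the named genes were added after seeing the data. The C57BL/10 library was used only for side values and as an alternative for the RNA differences between classes. 5-hydroxymethylcytosine (the difference of bisulphite and oxidative bisulphite calls) and sex chromosomes are not reported here.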

Additional observations from a re-analysis of the deposited data

How the results depend on the processing

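Both 1.5-fold and 3-fold thresholds, the window with the highest H3K27me3, the mean over windows and no Input kept 92.2%, 91.6%, 92.2%, 92.5% and 96.1% of genes in their class. With 1.5-fold the class with H3K27me3 only held 2392 genes and with 3-fold 817. Setting the zero of each mark at the median of olfactory receptor windows (-2.05 for H3K4me3 and -0.83 for H3K27me3) kept 75.8% of genes in their class and gave 5739 genes with both marks, 2353 with H3K27me3 only and 4798 with neither. Leaving out overlapping windows left 18646 genes and, by that construction, 7638 with H3K4me3 only. The correlation of the balance with RNA moved to 0.781 and 0.753 (Pearson, Spearman) per kb, 0.569 and 0.538 among genes of at least -2 log2 RPM, 0.726 and 0.711 with the highest-H3K27me3 window and 0.855 and 0.816 without overlapping windows. All 60 alternatives of the RNA differences between classes kept direction, each library left out in turn included. The side of the usual threshold could not change, since 3 libraries cannot go below p = 0.25 (0.1 without pairing) in these exact permutation tests. H3K27me3 only and neither had medians at the value of a gene without a read, so most log2 RPM differences against them could hardly reverse. Among genes of at least -2 log2 RPM, which leaves out silent genes, the differences were smaller. H3K4me3 only minus both marks was 3.16, H3K4me3 only minus neither 3.55, both marks minus H3K27me3 only 1.40 and both marks minus neither 0.39. For 5mC, where the side could not change either, direction held for 34 of 36 alternatives, with 2.55 for H3K4me3 only minus both marks and -27.1 for both marks minus H3K27me3 only at 3-fold. The exceptions were the difference between H3K4me3 only and both marks, which reversed to -2.54 percentage points in the 1 kb core (exact permutation p = 0.25) and to -0.90 with the 1.5-fold threshold; the cause was not tested. Without the pairing by library (no replicate block) the RNA difference of 6.33 had an exact permutation p = 0.1 and the 5mC difference of 0.57 p = 0.4, with no change of call, since neither fit can reach the usual threshold. With the highest-H3K27me3 window the balance of Nfib was 1.62, Zfp27 0.60, Zeb2 3.83, Phlpp1 1.36 and Gata3 -3.23. The pooled ChIP gives no error.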
